A study of Homo sapiens with 12 samples.

Results

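The response of WSU-DLCL2 cells to 2 cereblon modulators was read from their 3 RNA sequencing libraries, of 12 libraries in all. WSU-DLCL2 is an established line of diffuse large B-cell lymphoma, of the germinal-centre type as background. Its cells received avadomide, which the labels also call CC-122, lenalidomide or the solvent DMSO for 18 hours, with 1 library for each treatment. The members were chosen by the cell line named in the labels. The other 9 libraries hold the same 3 treatments of U2932, SUDHL-4 and TMD8, 3 further lymphoma lines. The labels state no dose, so whether the 2 compounds were used at equal strength is unknown. In these bulk libraries a change in the share of cells and a change in RNA per cell cannot be told apart. As background, SUDHL-4 is also of the germinal-centre type, and U2932 and TMD8 are of the activated B-cell type. A line stands for the cells of 1 patient's tumour grown in culture.

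Cereblon is the substrate receptor of a ubiquitin ligase, and both compounds turn that ligase against Ikaros (IKZF1) and Aiolos (IKZF3), zinc-finger transcription factors of lymphocytes. The compounds share a glutarimide ring; lenalidomide carries it on an isoindolinone and avadomide on a quinazolinone. Loss of the Ikaros proteins is known to release interferon-stimulated genes in lymphoma cells. NF-kB is a family of transcription factors held in the cytoplasm by inhibitors until signals from B-cell receptors or TNF-type receptors free it, and it drives survival and activation genes. Its constant activity is known as a mark of the activated B-cell type of this lymphoma, whereas germinal-centre lines usually show less of it.

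The deposited log2 values of WSU-DLCL2 were those of a B cell line. All 7 B cell markers and all 7 germinal-centre B cell markers stood at a log2 value of 7 or more in its 3 libraries, and they did so in the other 9 libraries too, so these markers do not tell the lines apart. Of 13 T and NK cell markers 1 reached that level, TRAC, a segment of the T-cell receptor locus, with 12.81 under avadomide, 12.99 under lenalidomide and 13.04 in DMSO. No myeloid marker of 11 reached it, and the highest, CD14, had values of 2.62, 3.04 and 2.58 in the same order. Of 13 stromal, endothelial and epithelial markers 1 did, DCN, with 10.26, 10.51 and 10.49. Whether the line expresses TRAC and DCN or reads were only assigned to them was not tested. The summed linear level of each marker list, as a percentage of a library's total, was 0.00809, 0.00923 and 0.00939 for T and NK cells and 0.00152, 0.00169 and 0.00164 for stromal types, again in the order avadomide, lenalidomide, DMSO. Mitochondrially encoded genes held 4.52% of the summed linear values under avadomide, 4.86% under lenalidomide and 5.02% in DMSO. Their part in the results below was not tested.

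Avadomide moved many more WSU-DLCL2 transcripts up than down. Of 22528 tested genes, 1393 were at least 2-fold higher than in DMSO, which is 6.18%, and 288 were at least 2-fold lower, which is 1.28%. Among the 11785 genes that reached a log2 value of 7 in the line, these counts were 319 and 39. Lenalidomide gave 373 genes at least 2-fold higher, or 1.66%, and 129 lower, or 0.573%, with 45 and 2 at the higher level. Each count compares 1 library with 1, so it has no replicate check. The number of genes at least 2-fold higher under avadomide, 1393, lay near those of U2932 with 1367 and TMD8 with 1476, and above that of SUDHL-4 with 404. Over 10740 genes at the higher level with a known transcript, the avadomide change in WSU-DLCL2 had a Spearman correlation of -0.359 with the GC content of the gene, against -0.124 in U2932, -0.614 in SUDHL-4 and -0.117 in TMD8. These correlations run across genes, which are not independent replicates.

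Most genes that avadomide moved in the other 3 lines moved in the same direction in WSU-DLCL2. In a limma fit of those 9 libraries, which left WSU-DLCL2 out, 1575 genes rose (6.99%) and 1091 fell (4.84%) at a Benjamini-Hochberg adjusted p of 0.05. Of the risen genes 1520 were higher under avadomide than in DMSO in WSU-DLCL2 too, or 96.5%, whereas 53.5% of all tested genes were higher there. Of the fallen genes 1028 were lower, or 94.2%, although 53.5% of all tested genes were higher. In WSU-DLCL2 364 of the risen genes were at least 2-fold higher and 55 of the fallen genes at least 2-fold lower. The median log2 change of the risen genes was 0.454 in WSU-DLCL2 and 0.542 in the other 3 lines. The number of such genes rested on the lines used, with 0 called without U2932, 256 without TMD8 and 2062 without SUDHL-4.

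Against that shared background, 18 genes changed by a different amount in WSU-DLCL2 than in the other lines. One limma model of all 12 libraries tested the avadomide change of WSU-DLCL2 minus the mean change of the other 3 lines, with adjustment over all 22528 genes. The difference was positive for 16 genes, 0.071% of those tested, and negative for 2, or 0.00888%. At an unadjusted p under 0.05 there were 1638 genes, or 7.27%. The spread in this test comes from the other 3 lines alone, since WSU-DLCL2 has 1 library per treatment and is assumed to vary as they do. It pools both compounds, so the lenalidomide libraries of those lines enter the error of the avadomide test. The p-values measure only the spread between these libraries, which may be partly technical. With only the 8 avadomide and DMSO libraries the test called 0 genes. Without SUDHL-4 the test called 5 genes, without TMD8 2 and without U2932 0. Each of the 18 differences kept its sign under every setting in which it was fitted, but most settings could not have turned it. The WSU-DLCL2 change lay outside those of the other 3 lines for each gene, so leaving out a line keeps the sign. Settings that alter only the variance leave the difference as it is.

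**Figure D1:**
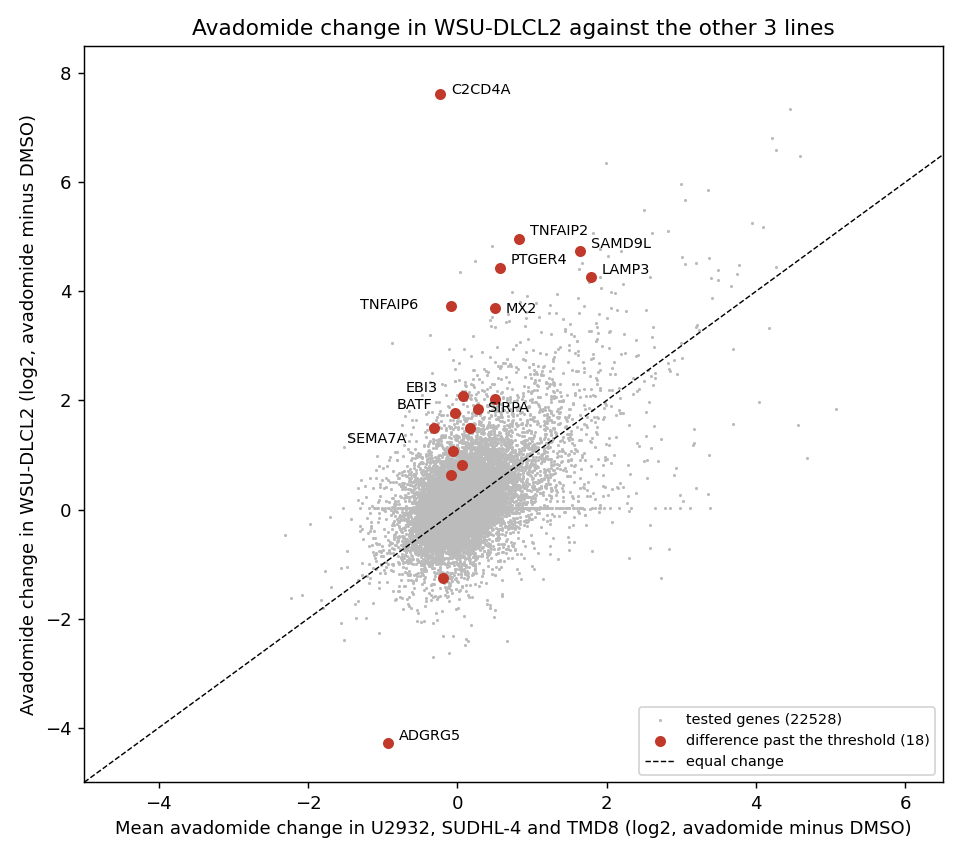
Avadomide change of each tested gene (grey) in WSU-DLCL2 on the vertical axis against its mean change in U2932, SUDHL-4 and TMD8 on the horizontal axis, both in log2 units, with the line of equal change dashed and the 18 genes past the threshold in red. C2CD4A sits at 7.61 in WSU-DLCL2 and ADGRG5 at -4.29, both far from the dashed line.

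Most NF-kB genes were higher under avadomide than in DMSO in WSU-DLCL2, whereas in each of the other lines single genes differed in both directions and their median change lay near 0. TNFAIP2, a protein of membrane protrusions induced by TNF (chromosome 14, 103123442 to 103137439, hg38 with GENCODE 29), had log2 values of 10.37 under avadomide, 6.58 under lenalidomide and 5.40 in DMSO. The avadomide library stood far above both others. The avadomide change was 4.97 in WSU-DLCL2, against 1.15 in U2932, 0.32 in SUDHL-4 and 1.00 in TMD8. In DMSO TNFAIP2 was already at 12.40 in TMD8 and 8.21 in U2932, and at 5.39 in SUDHL-4. TNFAIP2 also rose in the fit of those 3 lines alone (limma adjusted p = 0.0246). The difference was 4.14 ± 0.34 (log2, SE; limma adjusted p = 0.0158). EBI3, the subunit shared by the cytokines IL-27 and IL-35 (chromosome 19, 4229498 to 4237531), had values of 12.30 under avadomide, 10.78 under lenalidomide and 10.22 in DMSO. Its avadomide change of 2.08 in WSU-DLCL2 stood apart from 0.16 in U2932, 0.12 in SUDHL-4 and -0.04 in TMD8, a difference of 2.0 ± 0.17 (limma adjusted p = 0.0158). In TMD8 EBI3 was already at 11.76 in DMSO, so the avadomide level of WSU-DLCL2 lay close to the resting level of that line.

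Both genes belong to a list of 34 NF-kB subunits, inhibitors and targets. This list and those below were chosen with earlier results of these data known. Their counts beside all tested genes are therefore descriptions and not tests. The list's median avadomide change was 0.749 in WSU-DLCL2, against -0.054 in U2932, 0.072 in SUDHL-4 and 0.013 in TMD8, where the median of all tested genes lay between -0.003 and 0.022 in the 4 lines. In WSU-DLCL2 30 of the 34 genes were higher under avadomide than in DMSO, beside 53.5% of all tested genes. At least 2-fold higher were 12 of them, beside 6.18% of all tested genes. Past 2-fold there were 2 in U2932, TNFAIP2 and LTB, and 1 in each of SUDHL-4 and TMD8, CCL4 with 1.17 and 1.62. Over all 22528 tested genes, 1367 were at least 2-fold higher in U2932, 404 in SUDHL-4 and 1476 in TMD8. The WSU-DLCL2 change was the highest of the 4 lines for 28 of the 34 genes, beside 23.4% of all tested genes. For 23 genes the difference had an unadjusted p under 0.05, beside 7.27% of all tested genes, and only TNFAIP2 and EBI3 passed after adjustment over all genes.

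Among the subunits NFKB2 had the largest value. NFKB2, the precursor of the non-canonical subunit, had values of 13.90 under avadomide, 13.26 under lenalidomide and 13.17 in DMSO, and its avadomide change of 0.73 stood against -0.62 in U2932, -0.12 in SUDHL-4 and -0.38 in TMD8. RELB changed by 0.19, NFKB1 by 0.19, REL by 0.21 and RELA by -0.08. The inhibitor NFKBIA, itself an NF-kB target that closes a feedback loop, had values of 13.34, 12.80 and 12.49 in the order avadomide, lenalidomide, DMSO. Its avadomide change was 0.85 in WSU-DLCL2, against -0.01 in U2932, -0.04 in SUDHL-4 and -0.44 in TMD8. For NFKBIZ, an inducible nuclear member of that family, the change was 0.70 in WSU-DLCL2, -0.06 in U2932, 0.21 in SUDHL-4 and -0.70 in TMD8. None of these subunit and inhibitor differences passed the adjusted threshold.

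Survival and signalling targets were among the 12 genes at least 2-fold higher. BCL2A1, an anti-apoptotic relative of BCL2, had values of 12.92 under avadomide, 11.78 under lenalidomide and 11.28 in DMSO. Its change was 1.64 in WSU-DLCL2, against -0.72 in U2932, 0.42 in SUDHL-4 and -1.35 in TMD8, a difference of 2.19 ± 0.54 that did not pass (limma adjusted p = 0.339). BIRC3, an inhibitor-of-apoptosis ubiquitin ligase of TNF-receptor complexes, had 15.41, 14.67 and 14.18 in the same library order, and its difference of 0.68 ± 0.09 missed the threshold narrowly (adjusted p = 0.0616). CD40, the TNF-type receptor through which T cells stimulate B cells, had 14.50, 13.58 and 13.11 and a difference of 0.93 ± 0.16 (adjusted p = 0.143). The avadomide change of BIRC3 was 1.23 in WSU-DLCL2, against 0.52 in U2932, 0.52 in SUDHL-4 and 0.61 in TMD8. That of CD40 was 1.38, against 0.71, 0.31 and 0.32 in the same order of lines. BIRC3 and CD40 thus rose in all 4 lines, and also in the fit of the other 3 lines alone (limma adjusted p = 0.0051 and 0.0191). The adaptor TRAF1, the adhesion receptor ICAM1 and the activation marker CD83 were higher under avadomide by 1.10, 1.04 and 1.19. LTB, which encodes lymphotoxin beta, was lower, with 11.79 under avadomide, 11.86 under lenalidomide and 12.18 in DMSO, while in U2932 its avadomide change was 1.10.

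**Figure D2:**
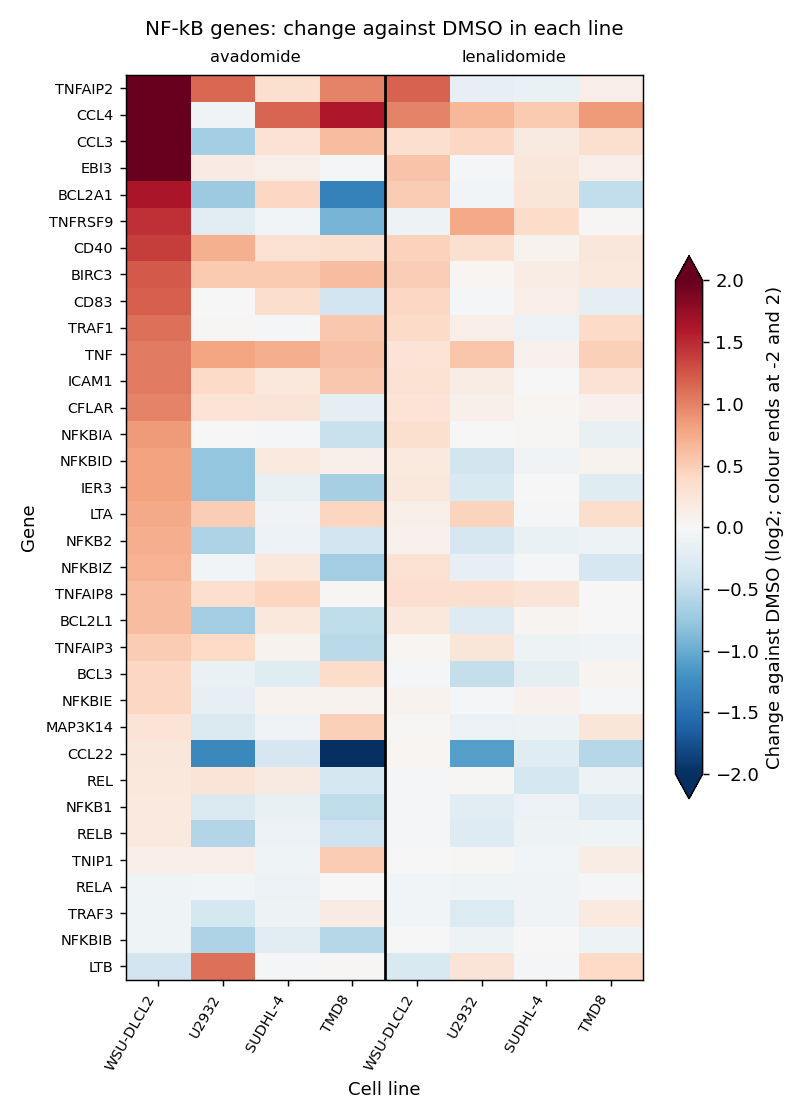
Log2 change against DMSO of 34 NF-kB genes (rows, ordered by the avadomide change in WSU-DLCL2) in each cell line, for avadomide in the left 4 columns and lenalidomide in the right 4, 1 library pair per cell of the map. The WSU-DLCL2 avadomide column is red for 30 genes, while the U2932, SUDHL-4 and TMD8 columns mix red and blue.

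BATF and IRF4, partner transcription factors that bind joint DNA elements in activated lymphocytes, were both higher under avadomide than in DMSO in WSU-DLCL2. BATF (chromosome 14, 75522425 to 75547015) had log2 values of 8.77 under avadomide, 7.53 under lenalidomide and 7.0 in DMSO. Its avadomide change was 1.77 in WSU-DLCL2, against 0.17 in U2932, 0.04 in SUDHL-4 and -0.32 in TMD8, and the difference of 1.81 ± 0.20 passed (limma adjusted p = 0.0432). In DMSO BATF was already at 13.61 in TMD8 and 10.83 in U2932, and at 8.20 in SUDHL-4. IRF4 (chromosome 6, 391739 to 411447) had 11.17 under avadomide, 10.17 under lenalidomide and 9.66 in DMSO. The IRF4 change was 1.51 in WSU-DLCL2, against -0.68 in U2932, 0.02 in SUDHL-4 and -1.14 in TMD8, positive here and near 0 or negative there, and the difference of 2.11 ± 0.37 did not pass (adjusted p = 0.146). Its DMSO level was 16.49 in TMD8, 14.71 in U2932 and 8.11 in SUDHL-4. Of 18 genes of the activated B-cell classifier, 3 were at least 2-fold higher under avadomide in WSU-DLCL2, beside 6.18% of all tested genes, against 2 in U2932, 0 in SUDHL-4 and 0 in TMD8. BATF alone of the 18 passed the test of the difference. The third of these genes in WSU-DLCL2, TNFRSF13B, the receptor TACI for B-cell growth factors, had 7.29 under avadomide, 5.71 under lenalidomide and 5.18 in DMSO. PIM1, a survival kinase, differed by 0.84 ± 0.14 (adjusted p = 0.112). PRDM1, the master regulator of plasma cells, stayed at a low level with 3.52, 3.5 and 3.48.

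C2CD4A, a C2-domain nuclear protein induced by inflammatory cytokines in endothelium (chromosome 15, 62066977 to 62070917), had the largest difference of all. Its log2 value was 7.48 under avadomide, 3.15 under lenalidomide and -0.13 in DMSO. The DMSO library was at the foot of the scale, the avadomide library well above it, and lenalidomide lay between. In the other lines its avadomide change was 0.99 in U2932, -0.13 in SUDHL-4 and -1.54 in TMD8, with no value above 2.90 in any of their 9 libraries. The difference was 7.84 ± 0.87 (limma adjusted p = 0.0432). On the linear scale of the deposited values avadomide over DMSO came to 195 and lenalidomide over DMSO to 9.69, ratios that rest on a DMSO value near the foot of the scale and have no replicate. TNFAIP6, a hyaluronan-binding protein induced by TNF, was also called, at low levels of 3.85, 1.92 and 0.11 (difference 3.83 ± 0.40, adjusted p = 0.0406).

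PTGER4, the prostaglandin E2 receptor EP4 (chromosome 5, 40679498 to 40693735), had values of 10.60 under avadomide, 8.01 under lenalidomide and 6.16 in DMSO. Here lenalidomide alone gave a change of 1.85. The avadomide change was 4.44 in WSU-DLCL2, against 1.07 in U2932, 0.59 in SUDHL-4 and 0.04 in TMD8, a difference of 3.87 ± 0.37 (limma adjusted p = 0.0304). In DMSO PTGER4 was already at 11.28 in TMD8 and 9.16 in SUDHL-4, and at 5.39 in U2932. LAMP3, a lysosomal membrane protein of mature dendritic cells that interferon also induces (chromosome 3, 183122213 to 183163839), had 11.83, 9.07 and 7.58 in the order avadomide, lenalidomide, DMSO. Its avadomide change was positive in all 4 lines, with 4.26 in WSU-DLCL2 against 1.58 in U2932, 1.65 in SUDHL-4 and 2.14 in TMD8, and the difference of 2.47 ± 0.29 passed by a small margin (adjusted p = 0.0493).

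The other positive differences were smaller and included membrane proteins and regulators of signalling. SEMA7A, a membrane-anchored semaphorin, had 9.69 under avadomide, 8.68 under lenalidomide and 8.2 in DMSO, and its change of 1.49 stood against -0.44 in U2932, -0.22 in SUDHL-4 and -0.29 in TMD8 (difference 1.80 ± 0.15, limma adjusted p = 0.0158). SIRPA, the receptor for the signal CD47, had 11.70, 10.44 and 9.85 and a difference of 1.57 ± 0.17 (adjusted p = 0.0411). NMI, a partner of STAT proteins, had 9.48, 7.81 and 7.46 and a difference of 1.52 ± 0.17 (adjusted p = 0.0432). For these 3 genes the avadomide library stood clearly above the DMSO library, with lenalidomide nearer to DMSO. In the order avadomide, lenalidomide, DMSO the values were 9.33, 7.98 and 7.85 for MOB3C and 9.69, 8.58 and 8.61 for LITAF. OTULIN had 14.25, 13.69 and 13.43 and ECE1 had 14.28, 13.72 and 13.65 in that order. MOB3C differed by 1.31 ± 0.14, LITAF by 1.13 ± 0.13, the linear-ubiquitin protease OTULIN by 0.76 ± 0.09 and the endothelin-converting enzyme ECE1 by 0.71 ± 0.08, with adjusted p-values of 0.0432 to 0.0434. OTULIN and ECE1 changed by less than 2-fold in WSU-DLCL2, with 0.82 and 0.63.

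**Figure D3:**
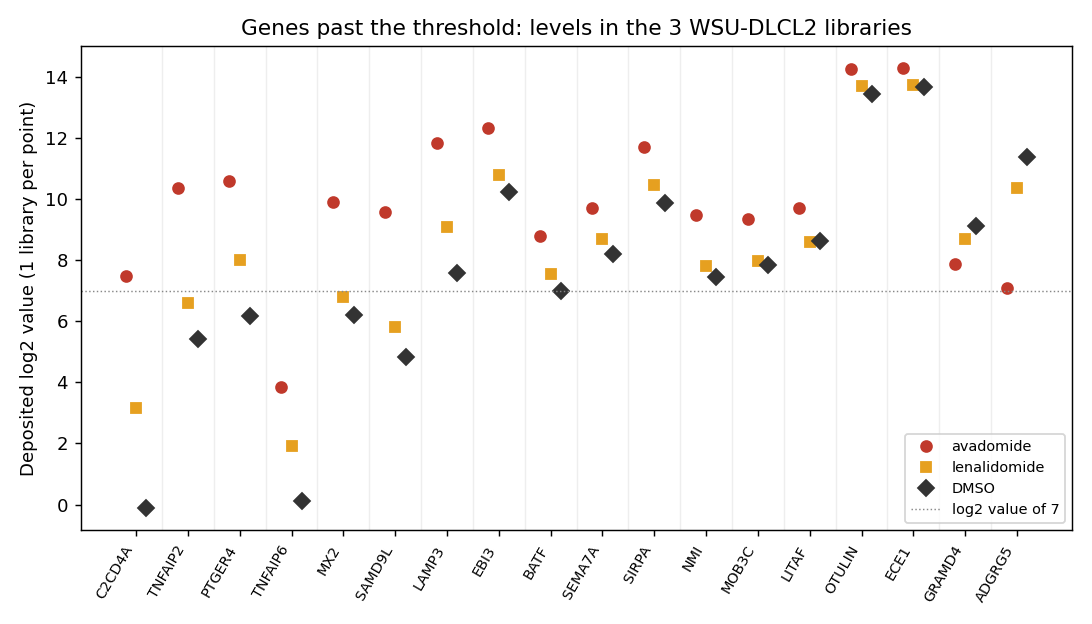
Deposited log2 values of the 18 genes past the threshold in the avadomide, lenalidomide and DMSO libraries of WSU-DLCL2, 1 library per point, ordered by the difference from the other lines; the dotted line marks a log2 value of 7. Avadomide is the highest point for the 16 genes on the left and the lowest for GRAMD4 and ADGRG5.

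Interferon-stimulated genes gave many of the largest changes in WSU-DLCL2, most of them shared with U2932 and TMD8. IFIT1, which binds viral RNA (chromosome 10, 89392546 to 89406486), had 11.74 under avadomide, 6.71 under lenalidomide and 4.40 in DMSO, and its change of 7.34 was the second largest in the line after C2CD4A among genes at log2 7 or more. IFI44L changed by 6.82, IFIT3 by 6.59, XAF1 by 6.49, USP18 by 6.36, DDX60 by 5.97, IFI6 by 5.86, MX1 by 5.68 and CXCL10 by 5.5. Of 47 tested genes of the list 44 were at least 2-fold higher, beside 6.18% of all tested genes, against 40 in U2932, 12 in SUDHL-4 and 37 in TMD8. The list's median was 2.57 in WSU-DLCL2, 2.30 in U2932, 0.443 in SUDHL-4 and 2.15 in TMD8. The median difference from the other 3 lines was 1.31, and the SUDHL-4 median was the lowest of the 4 lines. WSU-DLCL2 had the highest change of the 4 lines for 31 of the 47, beside 23.4% of all tested genes, and 19 had an unadjusted p under 0.05 for the difference, beside 7.27%. IRF7, an inducer of interferon genes, had 11.27, 8.73 and 8.39 in the order avadomide, lenalidomide, DMSO.

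Of that list, MX2 and SAMD9L passed the test of the difference. MX2, a dynamin-like antiviral GTPase (chromosome 21, 41361943 to 41409390), had 9.91 under avadomide, 6.79 under lenalidomide and 6.21 in DMSO. Its avadomide change was 3.70 in WSU-DLCL2, against 0.42 in U2932, 0.52 in SUDHL-4 and 0.59 in TMD8, a difference of 3.20 ± 0.13 with the smallest adjusted p of all genes (limma, 0.000397). The DMSO level of MX2 differed widely, with 6.21 in WSU-DLCL2 and 6.48 in SUDHL-4 against 13.11 in U2932 and 13.30 in TMD8. Without U2932 the MX2 difference was 3.15 and no longer passed (adjusted p = 0.0938). SAMD9L, an antiviral growth restrictor (chromosome 7, 93130055 to 93148369), had 9.57, 5.81 and 4.83 in WSU-DLCL2. Its change of 4.73 stood against 1.90 in U2932, 1.35 in SUDHL-4 and 1.68 in TMD8 (difference 3.09 ± 0.30, adjusted p = 0.0304). Reads from its relative SAMD9, which changed by 1.71 in WSU-DLCL2, may be shared with it to an extent the deposited values do not show.

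Promoter sequences of 4 genes are shown because 2 DNA elements known for these pathways occur in them. Searched on both strands of the 250 bases before each RefSeq gene start (GRCh38.p14) were the core of the interferon-stimulated response element, GAAA and GAAA separated by 2 bases, a composite element of GGAA and GAAA with the same spacing, and the kappaB site bound by NF-kB. Capitals mark a match on either strand, and the sequences run 5′ to 3′ on the gene's strand and end before the first transcribed base in GENCODE 29. IFIT1 (chr10:89392373-89392545, plus strand) stands for the interferon genes, EBI3 (chr19:4229273-4229497, plus strand) for 1 of the 2 NF-kB genes that passed the test, C2CD4A (chr15:62066727-62066976, plus strand) for the largest difference, and CXCL10 (chr4:76023498-76023747, minus strand) for a gene with elements of both kinds.
IFIT1: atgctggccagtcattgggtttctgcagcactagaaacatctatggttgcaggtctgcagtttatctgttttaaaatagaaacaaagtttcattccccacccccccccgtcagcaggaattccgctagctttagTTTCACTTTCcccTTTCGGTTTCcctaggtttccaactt
EBI3: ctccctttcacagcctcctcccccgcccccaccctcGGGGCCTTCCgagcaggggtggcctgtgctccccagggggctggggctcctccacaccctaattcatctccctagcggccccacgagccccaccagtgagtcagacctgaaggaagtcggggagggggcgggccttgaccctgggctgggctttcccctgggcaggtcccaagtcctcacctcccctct
C2CD4A: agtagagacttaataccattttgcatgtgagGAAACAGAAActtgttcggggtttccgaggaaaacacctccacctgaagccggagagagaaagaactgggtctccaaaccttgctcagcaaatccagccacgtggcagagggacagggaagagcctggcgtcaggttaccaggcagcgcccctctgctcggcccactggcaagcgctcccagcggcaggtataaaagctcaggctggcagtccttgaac
CXCL10: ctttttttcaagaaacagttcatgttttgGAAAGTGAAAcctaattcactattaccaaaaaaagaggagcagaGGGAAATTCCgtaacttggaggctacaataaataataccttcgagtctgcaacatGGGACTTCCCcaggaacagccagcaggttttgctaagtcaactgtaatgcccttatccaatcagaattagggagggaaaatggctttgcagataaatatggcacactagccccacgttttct
The interferon element matched at 2 places in IFIT1, between 116 and 94 bases before the RefSeq start, and once in C2CD4A, between 219 and 210 bases before it. The kappaB site matched once in EBI3, between 214 and 205 bases before its start. The window of TNFAIP2, the other NF-kB gene that passed and the one with the larger difference, held 0 matches. Only windows with a match were chosen for printing. Of 38 interferon-list genes with a RefSeq promoter, 24 held the interferon element, or 63.2%. This stood against 3.07% of all 27305 promoters and 2.61% of the 11215 promoters of tested genes. Of 29 NF-kB genes 12 held a kappaB match, or 41.4%, against 9.57% of all promoters and 11.8% of those of tested genes. Both lists were drawn up from genes known for these pathways, so these shares describe the lists and not the response of WSU-DLCL2. Among the 14 matched genes of the 18, the interferon element occurred in 2 and a kappaB match in 4. The composite element occurred in none of those 14 and in 2.44% of all promoters. A match is only a run of letters in this window and does not show binding.

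The 2 negative differences belonged to genes with lower levels under avadomide in all 4 lines. ADGRG5, an adhesion G-protein-coupled receptor of leukocytes (chromosome 16, 57542421 to 57591681), had 7.08 under avadomide, 10.36 under lenalidomide and 11.37 in DMSO. Its avadomide change was -4.29 in WSU-DLCL2, -0.84 in U2932, -1.33 in SUDHL-4 and -0.63 in TMD8, a difference of -3.35 ± 0.28 (limma adjusted p = 0.0158). GRAMD4, a mitochondrial protein linked to cell death (chromosome 22, 46576012 to 46679790), had 7.86, 8.70 and 9.11, with a difference of -1.05 ± 0.11 (adjusted p = 0.0406). In both genes the avadomide library was the lowest and the lenalidomide library lay between it and DMSO. After ADGRG5 the largest decreases at log2 7 or more were ABCA12, a lipid transporter, with -2.71, the cadherin CELSR2 with -2.39, the G-protein regulator RGS20 with -2.12 and GREB1 with -1.68. CELSR2 was lower in every line, by -1.75 in U2932, -1.48 in SUDHL-4 and -1.35 in TMD8.

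**Figure D4:**
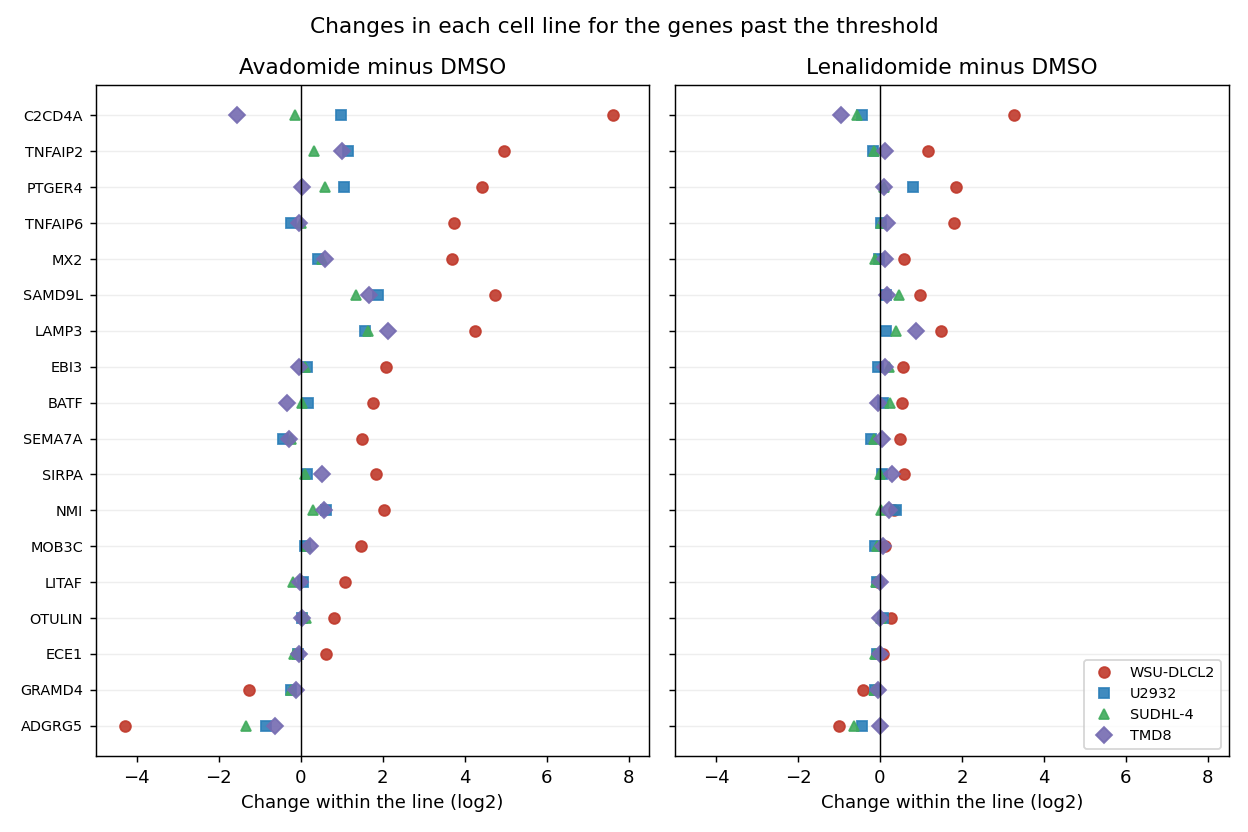
Log2 change against DMSO in each of the 4 cell lines for the 18 genes past the threshold, with avadomide on the left and lenalidomide on the right, 1 pair of libraries per point. Under avadomide the WSU-DLCL2 point stands outside the other 3 lines for each gene, by 7.61 against at most 0.99 for C2CD4A and by -4.29 against -1.33 or more for ADGRG5.

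Cytokine and surface genes were also higher under avadomide in WSU-DLCL2, without passing the test of the difference. Of 32 chemokines, cytokines and receptors 12 were at least 2-fold higher, beside 6.18% of all tested genes, against 10 in U2932, 1 in SUDHL-4 and 11 in TMD8. None was 2-fold lower in WSU-DLCL2. The list's median change was 0.768 in WSU-DLCL2, against -0.049 in U2932, 0.082 in SUDHL-4 and 0.390 in TMD8. CCL4, a chemokine that draws T cells, had 7.74 under avadomide, 5.38 under lenalidomide and 4.39 in DMSO; it and CCL3 have near-identical copies, so their reads may be split. CCL5 had 7.86, 6.69 and 6.69, and its change was 1.17 in WSU-DLCL2, against -0.24 in U2932, -0.52 in SUDHL-4 and -0.43 in TMD8 (difference 1.56 ± 0.39, limma adjusted p = 0.34). Of 20 tested immune ligands and checkpoints 6 were at least 2-fold higher and 1 lower, beside 6.18% and 1.28% of all tested genes. Past 2-fold higher there were 1 in U2932, 0 in SUDHL-4 and 4 in TMD8. CD274, which encodes PD-L1, had 8.28, 6.29 and 5.75 (difference 2.12 ± 0.43, adjusted p = 0.214). CD58, the ligand of the T-cell receptor CD2, had 10.62, 9.57 and 9.13 (difference 1.22 ± 0.19, adjusted p = 0.0853), and TNFRSF14, the receptor HVEM, 11.62, 10.74 and 10.06 (difference 1.08 ± 0.14, adjusted p = 0.0602). Of adhesion and migration genes, CD44 had 7.98, 6.87 and 6.62, with a difference of 1.53 ± 0.23 (adjusted p = 0.0823), and GPR183, the oxysterol receptor that positions B cells, 9.35, 8.02 and 7.31.

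No gene of the drug target or of MYC and growth passed the test of the difference. CRBN, which encodes cereblon, had 11.41 under avadomide, 11.40 under lenalidomide and 11.39 in DMSO. IKZF1 had 15.89, 15.35 and 15.05, IKZF3 15.34, 15.14 and 14.70, and the relative IKZF2 11.33, 11.04 and 10.56. The RNA of all 3 Ikaros genes was thus higher with either compound than in DMSO; the IKZF3 difference from the other lines was 0.36 ± 0.13 (limma adjusted p = 0.554). MYC (chromosome 8) had 14.22, 14.58 and 14.73. All 27 genes of MYC and ribosome biogenesis were lower under avadomide in WSU-DLCL2, where 53.5% of all tested genes were higher. Their median was -0.177 in WSU-DLCL2, against -0.205 in U2932, -0.132 in SUDHL-4 and -0.362 in TMD8. All 13 mitochondrially encoded genes were lower, with a median of -0.190, and WSU-DLCL2 had the lowest change of the 4 lines for 10 of them, beside 21.2% of all genes. For the MHC class II list of 17 genes WSU-DLCL2 had the highest change for none and a median of 0.132, against 0.162 in U2932, -0.180 in SUDHL-4 and 0.876 in TMD8. BCL6, the germinal-centre repressor, had 15.18, 15.53 and 15.59.

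**Figure D5:**
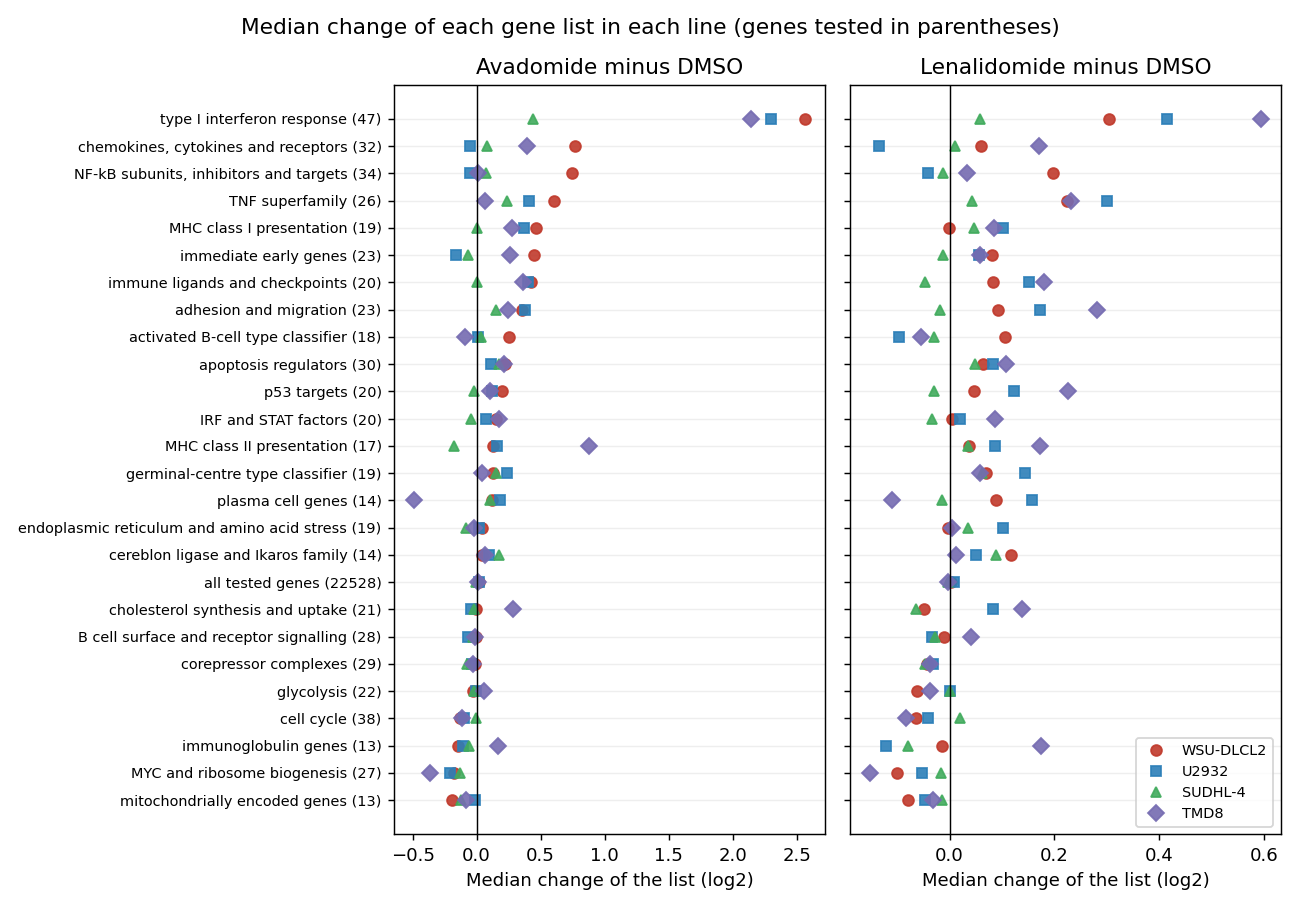
Median log2 change against DMSO of each gene list in each cell line, with avadomide on the left and lenalidomide on the right (the horizontal scales differ). For NF-kB genes under avadomide the WSU-DLCL2 point at 0.749 stands apart from the other 3 lines at -0.054 to 0.072, whereas for interferon genes it lies next to U2932 and TMD8.

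Lenalidomide changes in WSU-DLCL2 were fewer past 2-fold than those of avadomide, and both compounds are read against the same DMSO library, so a low or high value there enters both. The largest lenalidomide changes at log2 7 or more were C2CD4A with 3.28, IFI44L with 2.52, XAF1 with 2.43, the acetylcholinesterase gene ACHE with 2.40, USP18 with 2.30, IFIT1 with 2.30 and the glycosyltransferase gene B3GNT5 with 2.06. ACHE had 7.96 under avadomide, 5.80 under lenalidomide and 3.40 in DMSO. Its avadomide change was 4.56 in WSU-DLCL2, against 1.59 in U2932, -0.20 in SUDHL-4 and -0.70 in TMD8. RPS3AP5, a ribosomal protein pseudogene whose reads may belong to its parent gene, had the largest decrease with -1.06, followed by ADGRG5 with -1.01. For the 34 NF-kB genes the median lenalidomide change was 0.198 in WSU-DLCL2, against -0.041 in U2932, -0.013 in SUDHL-4 and 0.034 in TMD8. WSU-DLCL2 had the highest lenalidomide change for 20 of them, beside 23.9% of all genes, and TNFAIP2 alone reached 2-fold. In limma 0 genes (0%) passed the test of the difference between WSU-DLCL2 and the other lines under lenalidomide. At an unadjusted p under 0.05 there were 390 of 22528 tested genes. The error of this test also holds the avadomide libraries of the other lines. The count of 0 therefore does not show that the lines responded alike.

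Set directly against lenalidomide, avadomide gave higher values for 895 genes by at least 2-fold in WSU-DLCL2 and lower values for 179. The avadomide minus lenalidomide difference was itself different from that of the other 3 lines for 1 gene, or 0.00444%. That gene was MX2, with 9.91 under avadomide and 6.79 under lenalidomide in WSU-DLCL2, a difference from the other lines of 2.60 ± 0.13 (limma adjusted p = 0.00186). It passed without SUDHL-4 (adjusted p = 0.0451) but not without TMD8 (0.0676) or without U2932 (0.286). Because the doses are not known to match, neither set of values ranks the compounds by potency.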

How the data were processed

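RNA was sequenced from 12 cultures of 4 lymphoma lines. The authors deposited log2 values for each gene in each library, between -2.41 and 20.1. The submitters' processing notes list STAR, Salmon, MACS and hg38, with no version. How the values were normalized and transformed is not given in the sources used here. They look like a regularized log, which understates changes of low genes. Counts could not be recovered, so the depth is unknown. Of 58684 entries, 28 names turned into dates were left out. A gene was tested where at least 4 libraries reached a log2 value of 1, which left 22528.

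Tests used limma 3.58.1 (R 4.3.3) with an intensity trend, two-sided, at an adjusted p of 0.05. The model held cell line, treatment and a WSU-DLCL2 by treatment term, with 8 coefficients, 4 residual and 7.58 total degrees of freedom, and SEs are of that fit. The median residual SD was 0.283 for genes at mean log2 values of 1 to 5, against 0.0706 at 10 to 15. In simulated data with independent normal noise, log2 differences of 1, 2 and 4 were added to 67, 67 and 66 genes. The fit called 53.7%, 89.6% and 98.5% of them in that order, with 6 false calls. Only genes with a mean log2 value of at least 5 received a difference, so these shares do not cover lower genes. The shares also depend on how many genes differ. WSU-DLCL2 was simulated with the same spread as the other lines. The simulation therefore cannot check the assumption that it varies as they do. Within WSU-DLCL2 a gene counts as higher or lower past 2-fold. Gene positions are those of GENCODE 29. RefSeq promoters were matched by symbol for 11215 of the tested genes. Tables used Python 3.11.15, pandas 2.3.3, numpy 2.4.6 and matplotlib 3.10.9.

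Named genes have a symbol and reach a log2 value of 7 in WSU-DLCL2, except PRDM1, TNFAIP6 and the marker CD14. They are the 10 largest changes in each direction per compound, the 10 largest called differences in each direction, 9 genes of the drug target and B-cell fate, and up to 4 per list with the largest avadomide change. Other list members and called genes outside this rule were chosen after their values were seen. The members and lists were chosen with earlier results of these data known. Alternatives changed the filter, the scaling, the variance prior and the libraries used. Values of some genes are not reported here.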

Additional observations from a re-analysis of the deposited data

Results flagged for a closer look

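Each result here is a tested difference between WSU-DLCL2 and the mean of the other 3 lines in limma, and the report gives the WSU-DLCL2 values of each gene. For the avadomide change the difference on the log2 scale was 7.84 for C2CD4A, 4.14 for TNFAIP2, 3.87 for PTGER4, 3.83 for TNFAIP6, 3.20 for MX2, 3.09 for SAMD9L, 2.47 for LAMP3, 2.0 for EBI3, 1.81 for BATF and 1.80 for SEMA7A. SIRPA followed with 1.57, NMI with 1.52, MOB3C with 1.31, LITAF with 1.13, OTULIN with 0.76 and ECE1 with 0.71. GRAMD4 with -1.05 and ADGRG5 with -3.35 were the negative ones. For avadomide minus lenalidomide the difference was 2.60 for MX2. All 19 rest on 1 WSU-DLCL2 library per treatment, so a fault of a single library was not tested.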

How the results depend on the processing

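The 18 genes whose avadomide change differed in WSU-DLCL2 became 111 with no filter on low values (15 of the 18 among them), 30 with libraries shifted to the same median, 2 without the intensity trend, 0 with ordinary least squares and 0 with only the 8 avadomide and DMSO libraries; leaving out one of the other lines gave 0 to 5. Quantile normalization gave 12, of which 11 were among the 18. The lenalidomide count of 0 became 28 with no filter. The single gene of avadomide minus lenalidomide became 49 with no filter, 4 after the median shift, 0 without the trend, 0 with ordinary least squares and 0 to 1 with a line left out. The 2-fold counts in WSU-DLCL2 of 1681 for avadomide, 502 for lenalidomide and 1074 for avadomide against lenalidomide became 358, 47 and 203 among genes at log2 7 or more, and 4009, 1942 and 2828 at 1.5-fold. An alternative chosen after seeing the data removed the trend on GC content and length among genes at that level with a known transcript, and gave 322, 43 and 191, against 327, 44 and 194 for the same genes with the trend kept. Quantile normalization split the avadomide count into 1057 higher and 570 lower, against 1393 and 288 as deposited. For lenalidomide it gave 326 and 197, and for avadomide against lenalidomide 680 and 302. The 2666 genes called for avadomide in the other 3 lines became 699 with no filter, 508 without the trend and 0 to 2062 with a line left out, and quantile normalization split them 1352 to 1538. The causes were not tested. Unknown depth limits what can be said of genes at low values. The cell line term already sets each drug library against the DMSO library of its own line, and with 1 library per line and treatment there was no further replicate number to pair by.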

Other observations

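Some genes outside the groups above were also higher under avadomide in WSU-DLCL2. CDKN1A, which encodes the cell-cycle inhibitor p21, had 9.85 under avadomide, 8.15 under lenalidomide and 7.71 in DMSO, and its avadomide change was 2.14 in WSU-DLCL2, against 0.43 in U2932, 1.34 in SUDHL-4 and 0.86 in TMD8. CASP10, an initiator caspase, had 9.19, 8.10 and 7.16 in the same library order. VPREB1, a surrogate light chain of early B cells, had 10.69, 10.04 and 8.74, with changes of 1.95 in WSU-DLCL2, 3.0 in U2932, 1.64 in SUDHL-4 and 0.01 in TMD8. None of these 3 passed the limma test of the difference from the other lines.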
